A study of Mus musculus with 9 samples.

Results

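The genes described here mark macrophages and other antigen-presenting cells in mouse heart. From knowledge of these cells 35 genes were listed by name, with earlier results of these data known. Of these, 34 were found among the 13539 genes of the deposited table. Spi1, a transcription factor of the myeloid lineage, is the listed gene not analysed here. RNA came from heart tissue of 12-week-old male mice on the C57BL/6JOlaHsd background, in 3 groups of 3 libraries. Treated wild-type hearts came from wild type mice that carried minipumps that released isoproterenol for 7 days, at a daily dose of 10 mg/kg. Treated knockout hearts came from OMA1 KO mice given the same dose for the same time. Untreated knockout hearts came from OMA1 KO mice without treatment, so drug and pump cannot be told apart. The comparison of treated with untreated hearts is within knockout mice, since wild-type hearts without treatment were not analysed here. The labels do not name a promoter, a Cre driver or a number of lines for the knockout, and nothing in them says whether the 3 libraries of a group came from separate animals, so p-values measure the spread between these libraries.

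Isoproterenol is an agonist of β-adrenergic receptors that makes the heart beat harder and enlarge. OMA1 is a protease in the inner membrane of mitochondria that becomes active under stress. Macrophages are the most common leukocytes of the healthy heart. Some are seeded before birth and renew themselves in place, and these carry receptors such as Timd4, Lyve1 and Folr2. Others arise from blood monocytes that enter through the chemokine receptor Ccr2. Antigen-presenting cells load peptides onto MHC class II, a pair of α and β chains at the cell surface, with the help of the invariant chain Cd74 and the protease cathepsin S. B cells and dendritic cells make class II as well.

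Values are normalized counts, reads scaled so that the libraries sum to between 945508 and 1018791, and behind them stood 6933879 to 12187701 reads per library. Groups are given as mean ± SD (n = 3 libraries) and log2 differences with the standard error of the limma fit, on the log2(value + 1) scale, which understates the change of low genes. A gene was called when its p-value, adjusted by the Benjamini-Hochberg method over the 13077 genes tested, was under 0.05. In RNA from bulk tissue, fewer cells of a type and less RNA per cell cannot be told apart.

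The MHC class II genes, on which the results turn, are shown first by their control regions. In most class II genes a set of short motifs, the X and Y boxes, lies just before the start of the transcript and binds the complex that recruits the transactivator Ciita. RefSeq promoter windows on GRCm38.p6, from 250 bases before to 50 bases after the start, were found for 25 of the 34 genes, and for H2-Aa and H2-Eb1 among the class II genes. They are shown 5′ to 3′ on the strand of the gene, with the X box core GCAAC and the Y box core GATTGG in capitals. H2-Aa lies on the minus strand at chr17:34287774-34288073 and H2-Eb1 on the plus strand at chr17:34305617-34305916.
H2-Aa: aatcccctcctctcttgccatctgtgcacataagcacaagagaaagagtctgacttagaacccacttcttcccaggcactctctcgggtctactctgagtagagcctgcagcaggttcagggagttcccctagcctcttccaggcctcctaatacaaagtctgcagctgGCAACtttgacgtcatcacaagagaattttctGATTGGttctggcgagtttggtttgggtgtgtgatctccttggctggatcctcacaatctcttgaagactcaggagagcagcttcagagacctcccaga
H2-Eb1: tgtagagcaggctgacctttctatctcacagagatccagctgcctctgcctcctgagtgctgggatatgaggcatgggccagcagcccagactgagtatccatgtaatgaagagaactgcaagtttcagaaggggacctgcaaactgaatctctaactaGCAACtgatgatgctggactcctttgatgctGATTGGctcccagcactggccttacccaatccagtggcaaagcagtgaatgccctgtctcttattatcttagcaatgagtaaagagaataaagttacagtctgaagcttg

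In H2-Aa the GCAAC core began 81 bases before the start and was followed after 27 bases by GATTGG. In H2-Eb1 it began 91 bases before the start, with a gap of 26 bases. GCAAC followed by GATTGG on the same strand after 22 to 30 bases, searched on both strands, was found in 62 of 32851 promoter windows (0.189%), and among the members in these 2 genes. The range of gaps was set after these windows had been read. GATTGG alone lay in 16.1% of all windows and in 6 of 31 windows of members, which besides the class II genes belonged to Cd163, Cd53, Cd68 and Trem2. GAGGAAGT, a core bound by the myeloid factor PU.1, lay in 3.2% of all windows and in those of Cd53, Ctss and F13a1 among members. A match is a description of letters, not of binding.

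Libraries within a group differed in these genes together. Treated wild-type replicate 3 was the highest of its group in 30 of 34 members, at a median of 1.39 times the mean of the other 2 libraries, and it also stood apart in the atrial peptide gene Nppa (842 against 51.8 and 86.0). Untreated knockout replicate 3 was the highest of its group in 26 members (median 1.31 times), and treated knockout replicate 2 in 22 (median 1.10 times). Over all genes tested these 3 libraries were the highest of their groups in 35.6%, 34.5% and 38.3%, in the order named. Transcripts of the mitochondrial genome took up 33.9% to 34.6% of the signal in untreated knockout, 36.7% to 37.3% in treated wild-type and 38.2% to 42.5% in treated knockout hearts. The knockout itself was visible in Oma1, which ranged from 5.73 to 9.10 over the 6 knockout libraries and from 17.7 to 22.01 over the treated wild-type ones.

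The first comparison asked how treated hearts differ with and without OMA1. Treated knockout hearts held more transcripts of MHC class II than treated wild-type hearts, by 1.5- to 1.74-fold, while the other members did not pass the test. Of 33 members tested, 4 were called, where 17.7% of all genes were. All 4 were higher (8.06% of all genes), and 0 were called lower by limma (9.67% of all genes). At an unadjusted p under 0.05, 7 members were higher and 1 was lower, and edgeR on the recovered reads also called 4 higher and 0 lower. The median log2 difference of the 33 members was 0.14, beside 0.017 over all genes. The 4 called members were Cd74, H2-Aa, H2-Ab1 and H2-Eb1, and in each of them all 3 treated knockout libraries lay above all 3 treated wild-type libraries. Groups did not overlap for 7 members that were higher and 1 that was lower, where 18.4% and 18.1% of all genes, 36.5% together, did not.

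H2-Eb1 (ENSMUSG00000060586, chromosome 17, 34305867 to 34316674), a class II β chain of the E locus, stood at 20.9, 19.6 and 19.7 in treated wild-type hearts. The treated knockout values were 37.6, 33.2 and 34.0. In untreated knockout hearts it stood at 37.0, 40.6 and 55.3. Treated wild-type libraries were thus the lowest 3 of the 9, and replicate 3, high in most macrophage genes, was not high in this gene. Its log2 difference between the treated groups was 0.77 ± 0.12 (limma, adjusted p = 0.0013).

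Cd74, the invariant chain that guides class II through the cell, stood at 58.5, 48.5 and 65.8 in treated wild-type hearts. In treated knockout hearts it stood at 91.9, 109 and 86.3, and in untreated knockout hearts at 106, 118 and 166. The treated groups did not overlap, and their log2 difference was 0.73 ± 0.15 (limma, adjusted p = 0.0049). H2-Ab1, the β chain of the A locus, stood at 16.9, 16.7 and 23.1 in treated wild-type, 27.2, 28.9 and 29.3 in treated knockout, and 35.5, 36.0 and 47.8 in untreated knockout hearts. Its log2 difference between treated groups was 0.58 ± 0.13 (limma, adjusted p = 0.0086). With length and GC content of the transcripts corrected for, it was 0.35 (adjusted p = 0.11), while the other 3 called genes kept theirs. Class II genes resemble each other in sequence, and how reads that fit several of them were shared out is uncertain.

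H2-Aa, the α chain of the A locus, was the fourth called gene and had values of 25.9, 20.2 and 28.1 in treated wild-type, 38.0, 35.0 and 38.4 in treated knockout, and 42.3, 51.5 and 66.9 in untreated knockout hearts. Its log2 difference of 0.58 ± 0.14 (limma, adjusted p = 0.014) was no longer called without treated wild-type replicate 2 (0.45, adjusted p = 0.065), nor by limma without a trend (adjusted p = 0.053). Cd74 and H2-Eb1 kept their call in each of 26 alternative analyses. Ctss, cathepsin S, which trims the invariant chain, did not go with the other 4: it stood at 14.3, 14.6 and 27.6 in treated wild-type and at 20.3, 18.5 and 17.9 in treated knockout hearts (0.07 ± 0.21, adjusted p = 0.86).

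**Figure D1:**
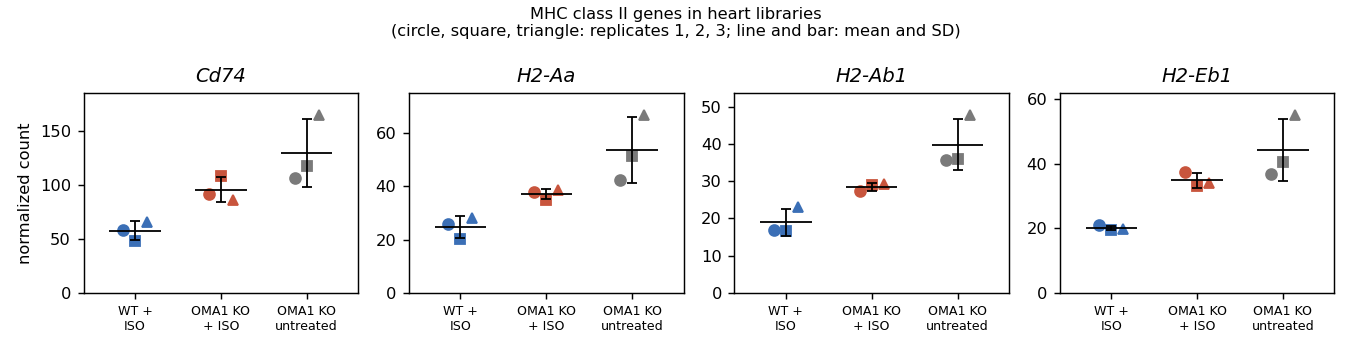
Normalized counts of Cd74, H2-Aa, H2-Ab1 and H2-Eb1 (vertical axis, from 0) in each library of treated wild-type, treated knockout and untreated knockout hearts, with group means and SDs. In each gene the 3 treated wild-type libraries lie below the other 6; Cd74 runs from 48.5 to 65.8 there and from 86.3 to 166 in the knockout libraries.

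Class II levels were also set against Csf1r, the receptor for the growth factor of macrophages, within each library, a ratio that does not depend on how libraries are scaled and that was chosen after the values were seen. Cd74 per Csf1r was 1.14 to 1.40 in treated wild-type, 1.92 to 2.17 in treated knockout and 3.10 to 3.61 in untreated knockout libraries. H2-Aa per Csf1r was 0.476 to 0.622, 0.699 to 0.893 and 1.29 to 1.46 in the same order. H2-Ab1 and H2-Eb1 were ordered the same way. Of 33 members compared with Csf1r, these 4 were the ones whose 3 groups followed this order with no overlap. That order was the one their group means already had, and its share over all genes was not computed. B cells make class II as well, and their markers summed to 29.5 to 155 in untreated knockout libraries. The part of B cells in these ratios was not tested.

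Markers of other class II cells were read beside these genes. B cell markers were low in both treated groups: the summed level of the 6 B cell markers in the table was 5.86 to 6.80 in treated wild-type and 5.94 to 7.36 in treated knockout hearts, most of it Ighm. Between these groups limma called 0 of 5 tested B cell markers and edgeR called 0, and 0 reached an unadjusted p of 0.05. Among 3 tested dendritic cell markers 1 was higher in treated knockout hearts, the transcription factor Zbtb46 (21.4 ± 2.62 against 29.2 ± 5.78, adjusted p = 0.036), which endothelial cells also express. Endothelial markers were higher for 7 of 10. Of all genes, 8.06% were higher in this comparison. Clec9a, a receptor of cross-presenting dendritic cells, was at 3.70 ± 1.07 and 4.72 ± 1.61 (adjusted p = 0.41). The part of dendritic or endothelial cells in the class II difference was not tested.

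The remaining members gave no call between the treated groups. Coro1a, an actin regulator of leukocytes, came closest, with 7.06, 7.61 and 9.71 in treated wild-type, 13.3, 13.5 and 11.6 in treated knockout, and 7.01, 12.5 and 15.2 in untreated knockout hearts. The treated groups did not overlap, and the log2 difference was 0.61 ± 0.20 (limma, adjusted p = 0.053), with 8 of 26 alternatives under the threshold. Cd52, a small surface glycoprotein of leukocytes, was at 2.11, 2.31 and 3.08 in treated wild-type, 5.18, 3.75 and 3.33 in treated knockout and 1.93, 3.94 and 4.56 in untreated knockout hearts (0.53 ± 0.23 between treated groups, adjusted p = 0.12). Without treated wild-type replicate 3, whose macrophage genes were high, 7 members were called higher. Added were Coro1a (0.73, limma, adjusted p = 0.031), Laptm5 (0.36, adjusted p = 0.035) and Lgals3 (0.58, adjusted p = 0.027). Over all genes 995 of 13073 were called higher then, beside 1054 of 13077 with all libraries. The median of the members was 0.347, beside 0.026 over all genes.

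The second comparison set treated against untreated hearts, both without OMA1. Treated hearts held more transcripts of Ms4a7, Fcgr3, Cd68, Mertk, Mrc1 and F13a1, all expressed by macrophages. They held fewer of Folr2 and of the class II genes. Of 33 members, 11 were called, where 42.2% of all genes were, so the share called was no larger than over all genes. The 11 were 6 that rose (21.5% of all genes) and 5 that fell (20.7%). The median log2 difference was 0.24, beside 0.015 over all genes. A pseudocount of 10 gave 0.118, and leaving out untreated knockout replicate 3 gave 0.375. Groups did not overlap for 8 members that were higher and 3 that were lower in treated hearts, where 28.2% and 27.0% of all genes, 55.3% together, did not. Libraries were also scaled to the sum of nuclear genes, which moved the median of all genes from 0.015 to 0.111. With that scaling 10 members were called higher and 1 lower, beside 3836 and 1950 of all 13077 genes. The same scaling moved the higher share of all calls from 50.9% to 66.3% here and from 45.5% to 59.3% between the treated groups. Without untreated knockout replicate 3, 13 members were called higher and 1 lower, beside 2520 and 2370 of all 13042 genes tested so.

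**Figure D2:**
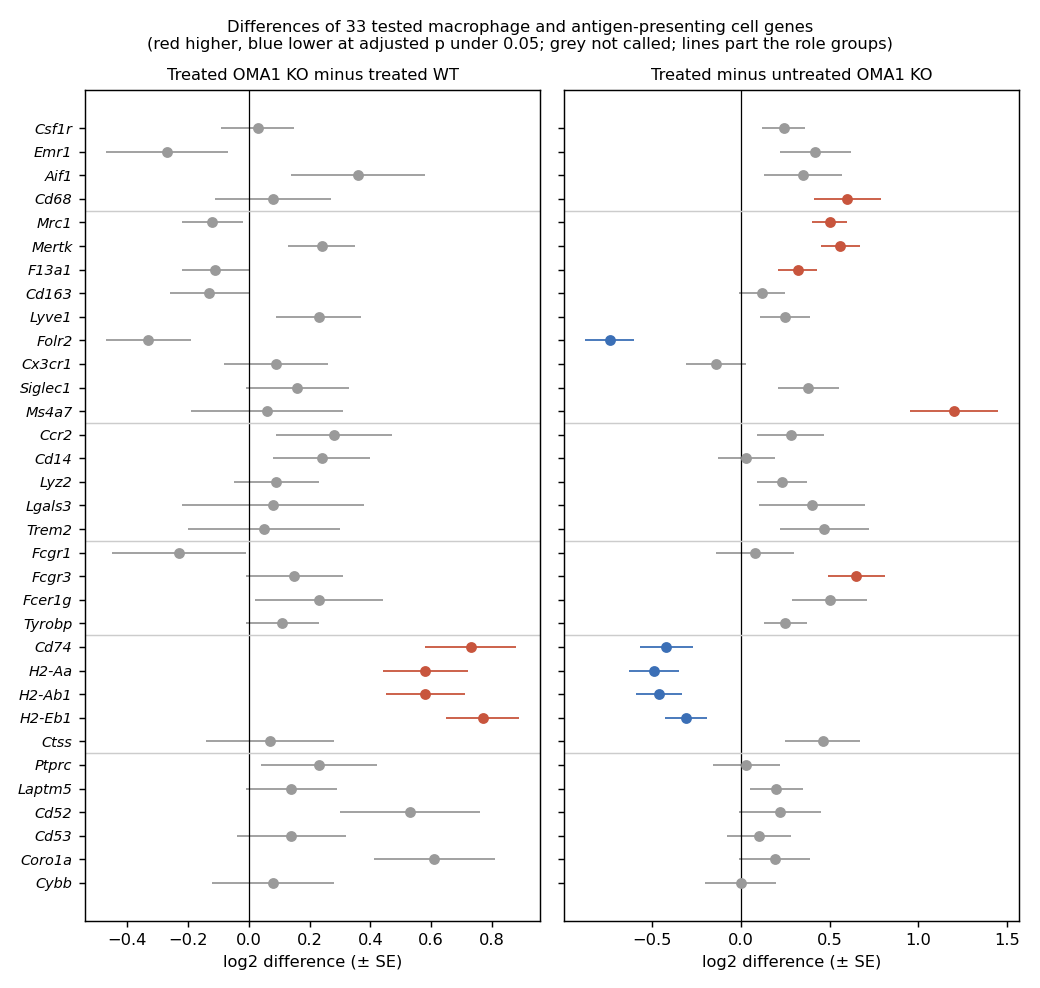
Log2 differences (± SE) of the 33 tested members between treated knockout and treated wild-type hearts (left) and between treated and untreated knockout hearts (right), parted into 6 role groups. Red and blue points mark genes called higher and lower: on the left the 4 class II genes are red, and on the right the same 4 and Folr2 are blue while 6 other genes are red.

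Genes of the macrophage lineage came first. Cd68, a lysosomal glycoprotein used to stain macrophages, stood at 6.97, 7.49 and 11.9 in treated wild-type, 9.33, 10.1 and 7.95 in treated knockout, and 4.83, 4.92 and 7.46 in untreated knockout hearts. It rose by a log2 difference of 0.60 ± 0.19 (limma, adjusted p = 0.020). Leaving out untreated knockout replicate 1 or 2 ended that call (adjusted p = 0.078 and 0.077), as did leaving out treated knockout replicate 1 or 2 (adjusted p = 0.051 and 0.073). Emr1, the F4/80 antigen, had 13.02, 15.3 and 22.01 in treated wild-type, 12.3, 14.4 and 13.6 in treated knockout and 7.49, 8.85 and 13.8 in untreated knockout hearts (0.42 ± 0.20 between the knockout groups, adjusted p = 0.097). Csf1r was at 41.7, 42.4 and 50.9 in treated wild-type, 42.6, 50.1 and 44.9 in treated knockout and 32.9, 38.0 and 45.9 in untreated knockout hearts. The knockout groups overlapped in both genes, and the log2 difference of Csf1r was 0.24 ± 0.12 (adjusted p = 0.11). Without untreated knockout replicate 3 both were called, Csf1r at 0.36 (adjusted p = 0.022) and Emr1 at 0.65 (adjusted p = 0.011). Csf1r was also called with scaling to nuclear genes (0.35, adjusted p = 0.036), and Emr1 in a fit blocked by replicate number (adjusted p = 0.027) or without treated wild-type replicate 3 (adjusted p = 0.049). Aif1, the calcium-binding protein Iba1, was low, from 1.45 to 3.44 over the 9 libraries, and gave no call in the main fit. Without untreated knockout replicate 3 it was called between the knockout groups (0.58, limma, adjusted p = 0.048).

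Members grouped here as resident macrophage genes moved in opposite directions. The grouping was made by name, and whether each gene is particular to resident cells was not tested. Among 9 tested, 4 rose and 1 fell, where 21.5% and 20.7% of all genes did. Ms4a7, a membrane protein of the tetraspan MS4A family, had the largest log2 difference of the members: it stood at 4.95, 5.30 and 13.1 in treated wild-type, 7.46, 6.88 and 7.95 in treated knockout, and 2.42, 2.95 and 2.63 in untreated knockout hearts. All 6 treated libraries lay above the 3 untreated ones, with a log2 difference between the knockout groups of 1.20 ± 0.25 (limma, adjusted p = 0.0015; 0.46 with a pseudocount of 10, since it is low).

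Mertk, a receptor for the uptake of dying cells, stood at 10.36, 10.15 and 10.67 in treated wild-type, 11.7, 13.03 and 12.7 in treated knockout, and 8.58, 7.38 and 8.57 in untreated knockout hearts. Here the 3 groups were separate and narrow, and the rise between the knockout groups was 0.56 ± 0.11 (limma, adjusted p = 0.00090). Between the treated groups its difference of 0.24 ± 0.11 did not pass (adjusted p = 0.13). Mrc1, the mannose receptor CD206, had 31.6, 32.6 and 39.6 in treated wild-type, 31.7, 33.5 and 29.9 in treated knockout, and 19.8, 22.8 and 24.2 in untreated knockout hearts. It rose by 0.50 ± 0.10 (limma, adjusted p = 0.0015). F13a1, the A chain of clotting factor XIII, rose from 22.8 ± 3.41 to 28.7 ± 3.44 (0.32 ± 0.11, limma, adjusted p = 0.028), with groups that overlapped. The F13a1 call ended when untreated knockout replicate 1 or 2 (adjusted p = 0.091 and 0.13) or treated knockout replicate 2 (0.12) was left out, and DESeq2 did not make it (adjusted p = 0.059).

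Folr2, the folate receptor β of resident macrophages, went the other way. It stood at 5.32, 6.80 and 5.77 in treated wild-type, 4.77, 4.17 and 4.62 in treated knockout, and 7.13, 8.98 and 8.57 in untreated knockout hearts, so the treated knockout libraries were the lowest 3 and the untreated ones the highest 3 of all 9. It fell by 0.74 on the log2 scale between the knockout groups (SE 0.14, limma, adjusted p = 0.00069). Between the treated groups its difference was -0.33 ± 0.14 (adjusted p = 0.11), and -0.45 with length and GC content corrected for (adjusted p = 0.041).

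Timd4, a phosphatidylserine receptor of macrophages that renew in place, was too low for the test, with 3 to 14 reads per library. Its values were 0.367, 0.461 and 0.481 in treated wild-type, 0.311, 0.417 and 0.730 in treated knockout, and 1.57, 1.11 and 1.93 in untreated knockout hearts. The 3 untreated libraries were the highest, and without the minimum level the log2 difference between the knockout groups was -0.77 ± 0.21 (limma, adjusted p = 0.0090). Lyve1, a hyaluronan receptor, ranged from 7.98 to 13.9 and the scavenger receptor Cd163 from 7.75 to 11.5. Cx3cr1, the fractalkine receptor, ranged from 5.78 to 9.84 and Siglec1, a sialic acid receptor, from 2.54 to 5.11. These 4 gave no call in the main fit of any comparison, with log2 differences between the knockout groups of 0.25, 0.12, -0.14 and 0.38. Siglec1 was called between the knockout groups without untreated knockout replicate 3 (0.53, limma, adjusted p = 0.025) and with scaling to nuclear genes (0.47, adjusted p = 0.039).

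**Figure D3:**
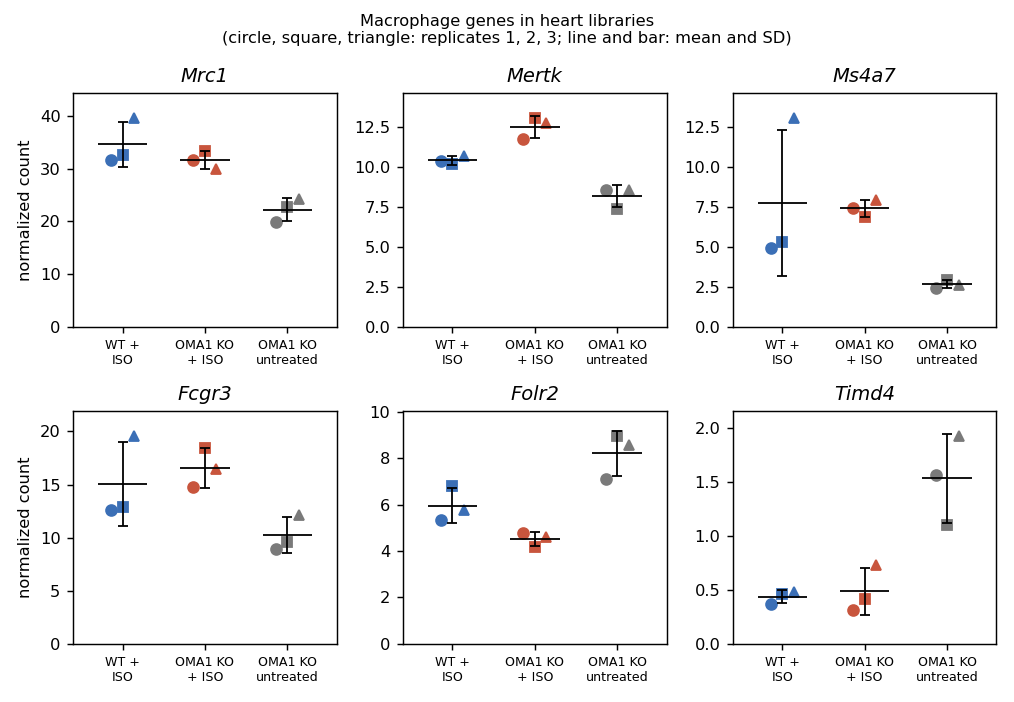
Normalized counts of Mrc1, Mertk, Ms4a7, Fcgr3, Folr2 and Timd4 (vertical axis, from 0) in each library, with group means and SDs. In the first 4 genes the untreated knockout libraries are low, for example 2.42 to 2.95 for Ms4a7, and in Folr2 and Timd4 they are the highest; treated wild-type replicate 3 stands apart in Ms4a7 at 13.1.

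Of 5 monocyte and activated macrophage genes, limma called 0 between the knockout groups and edgeR called 0, and 0 reached an unadjusted p of 0.05. Trem2, a lipid receptor of activated macrophages, was at 2.84, 2.19 and 4.42 in treated wild-type, 2.18, 4.90 and 2.92 in treated knockout, and 1.69, 2.83 and 1.66 in untreated knockout hearts (0.47 ± 0.25, adjusted p = 0.15). Lyz2, lysozyme, was the most abundant member per length, at 121 to 141 normalized counts per kb in the 3 group means. Its values were 145, 166 and 222 in treated wild-type, 183, 191 and 184 in treated knockout and 138, 149 and 193 in untreated knockout hearts, and the groups overlapped (0.23 ± 0.14, adjusted p = 0.18). Without untreated knockout replicate 3 the difference of Lyz2 was called (0.38, limma, adjusted p = 0.042). Reads of Lyz2 can be shared with its near-identical neighbour Lyz1. Cd14, the co-receptor for bacterial lipopolysaccharide, was at 4.40, 3.69 and 5.57 in treated wild-type, 4.87, 5.73 and 6.00 in treated knockout and 4.83, 4.92 and 6.49 in untreated knockout hearts (0.03 ± 0.16, adjusted p = 0.89). Ccr2, which brings monocytes into tissue, was at 5.52 ± 1.65, 6.78 ± 0.128 and 5.53 ± 1.56 in the same order of groups, with no call. Lgals3, galectin-3, stood at 12.0 in treated wild-type replicate 3 and between 3.57 and 6.88 in the other 8 libraries. Its knockout groups did not overlap, with a log2 difference of 0.40 ± 0.30 (limma, adjusted p = 0.30). It was called without treated wild-type replicate 3 (limma, adjusted p = 0.040) and when only the knockout groups were fitted (limma, adjusted p = 0.048).

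Of the Fc receptor genes 1 of 4 rose, near the 21.5% of all genes that did. Fcgr3, the low-affinity receptor for antibodies, stood at 12.6, 12.9 and 19.6 in treated wild-type, 14.7, 18.4 and 16.5 in treated knockout, and 8.94, 9.59 and 12.2 in untreated knockout hearts. Its log2 difference between the knockout groups was 0.65 ± 0.16 (limma, adjusted p = 0.0048), and the groups did not overlap. Fcer1g, the signalling chain that Fc receptors share, was at 5.78, 9.34 and 12.5 in treated wild-type, 8.91, 11.8 and 10.95 in treated knockout, and 7.01, 6.03 and 8.57 in untreated knockout hearts (0.50 ± 0.21, adjusted p = 0.065). It was called with only the knockout groups fitted (limma, adjusted p = 0.014), with a replicate block (0.030) and with scaling to nuclear genes (0.039). Leaving out treated wild-type replicate 1 or 3 (0.019 and 0.026) or untreated knockout replicate 3 (0.050) also gave a call. Tyrobp, the adaptor of Trem2 and related receptors, varied little within groups and stood at 6.51, 6.57 and 7.98 in treated wild-type, 7.77, 7.61 and 7.54 in treated knockout and 6.28, 6.40 and 6.08 in untreated knockout hearts. The knockout groups did not overlap for Fcer1g and Tyrobp either, yet the difference of Tyrobp was 0.25 ± 0.12 (adjusted p = 0.11). Tyrobp was called with scaling to nuclear genes (limma, adjusted p = 0.037) and by limma without a trend (adjusted p = 0.044). Fcgr1, the high-affinity receptor, lay between 1.80 and 3.84 with no call.

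Between the knockout groups limma called 0 of the 6 pan-leukocyte genes and edgeR called 0, with 0 at an unadjusted p of 0.05. Ptprc, the leukocyte phosphatase CD45, was at 13.04 ± 2.608 in treated and 12.7 ± 2.04 in untreated knockout hearts (0.03 ± 0.19). Laptm5, a lysosomal protein of leukocytes, was at 22.5, 22.7 and 36.4 in treated wild-type, 31.8, 29.4 and 26.9 in treated knockout and 23.2, 24.2 and 29.1 in untreated knockout hearts (0.20 ± 0.15, adjusted p = 0.31). The tetraspanin Cd53 and Cybb, the NADPH oxidase of phagocytes, differed by 0.10 and 0.00.

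The 4 class II genes fell between the knockout groups, with log2 differences from -0.49 for H2-Aa to -0.31 for H2-Eb1 (limma, adjusted p = 0.012 to 0.049). Cd74 went from 130 ± 31.4 in untreated to 95.7 ± 11.7 in treated hearts. All 4 calls rested on untreated knockout replicate 3. Without it the log2 differences of Cd74, H2-Aa, H2-Ab1 and H2-Eb1 were -0.23, -0.32, -0.32 and -0.15 (adjusted p = 0.17, 0.071, 0.064 and 0.25). With scaling to nuclear genes they were -0.31, -0.39, -0.35 and -0.21 (adjusted p = 0.12, 0.050, 0.055 and 0.19). H2-Eb1, whose adjusted p was 0.049, was called in 14 of 26 alternatives, and Cd74 in 18. Cd74 was also not called without treated knockout replicate 1 or 3 (adjusted p = 0.082 and 0.11). H2-Eb1 was not called without treated knockout replicate 2 or 3 (adjusted p = 0.13 and 0.12), untreated knockout replicate 2 (0.058), or treated wild-type replicate 1 or 2 (0.054 and 0.060). Ctss went the other way, from 10.99, 12.18 and 18.24 in untreated knockout hearts (0.46 ± 0.21, limma, adjusted p = 0.097). It was called without treated wild-type replicate 3 (0.017) or untreated knockout replicate 3 (0.027), with only the knockout groups fitted (0.024), and with a replicate block (0.045).

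Markers of many other cells moved with this comparison. Treated knockout hearts were higher in 10 of 10 endothelial markers, 8 of 10 fibroblast markers, 6 of 9 pericyte and smooth muscle markers (1 was lower) and 2 of 3 dendritic cell markers, and lower in 3 of 10 cardiomyocyte markers. Of all genes, 21.5% were higher and 20.7% lower. The summed level of the 6 B cell markers was 29.5, 31.7 and 155 in untreated knockout hearts, highest in replicate 3, where class II was also highest, against at most 7.36 in the treated libraries, where Cd79a, Cd79b and Igkc were each above 0 in every library. All 5 tested B cell markers fell in treated hearts, Cd79a, the signalling chain of the B cell receptor, from 3.32 ± 1.41 to 0.355 ± 0.275. The 5 atrial myocyte markers in the table summed to 1150 to 2550 in untreated and 97.1 to 127 in treated knockout hearts. The 4 adipocyte markers summed to 16.1 to 69.4 in untreated hearts and to 0 to 0.725 in treated ones, where Adipoq, the adipocyte hormone, was at 0 in 2 of 3 libraries. Sarcolipin (Sln), an atrial calcium pump regulator, was at 0 in 2 of 3 treated knockout libraries. In treated wild-type hearts the atrial sum was 62.8, 97.2 and 850 and the adipocyte sum at most 0.288. Nppa alone made up 842 of the 850. The other atrial markers stood at 0 to 6.34 in that library, each no higher than in the rest of its group. In treated knockout libraries Nppa was at 84.9, 117 and 100, so it made up most of their atrial sum too. The part of these cells, or of a different dissection, in the differences of all members between treated and untreated hearts, rises and falls alike, was not tested.

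**Figure D4:**
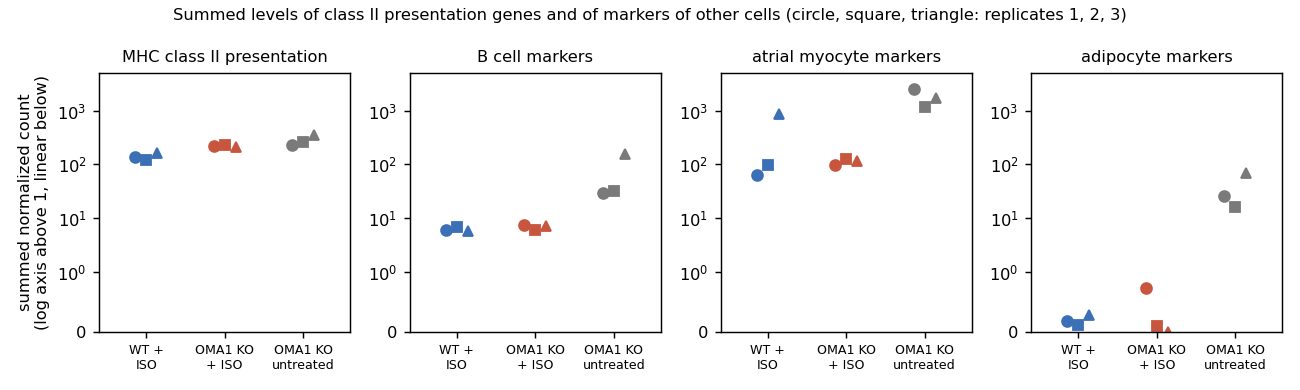
Summed normalized counts per library (vertical axis, logarithmic above 1 and linear below) of the 5 class II presentation genes, Ctss included, and of the B cell, atrial myocyte and adipocyte markers in the table. Untreated knockout libraries are the highest in the 3 marker lists; in both treated groups B cell markers lie between 5.86 and 7.36.

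The third pair of groups, treated wild-type against untreated knockout hearts, differs in genotype and treatment at once and shares its samples with the first 2 comparisons. There 11 of 33 members were called, 6 higher and 5 lower in treated wild-type hearts, where 27.1% of all genes were called. The class II genes had their largest differences here, from -1.14 ± 0.15 for Cd74 to -1.04 ± 0.13 for H2-Ab1 (limma, adjusted p = 2.4e-05 to 0.00011 over the 4 genes). Folr2 was also lower (-0.41 ± 0.14, adjusted p = 0.040), a call lost without treated wild-type replicate 1 or 3 (adjusted p = 0.13 and 0.097), untreated knockout replicate 2 or 3 (adjusted p = 0.14 and 0.10), or treated knockout replicate 1 or 3 (adjusted p = 0.050 and 0.053). The higher genes were Ms4a7 (1.14 ± 0.25), Emr1 (0.70 ± 0.20), Mrc1 (0.61 ± 0.10), Fcgr3 (0.50 ± 0.16), F13a1 (0.43 ± 0.11) and Mertk (0.32 ± 0.11). Without treated wild-type replicate 3 the difference of Ms4a7 was 0.74 (adjusted p = 0.0035), and Emr1, Fcgr3 and Mertk were not called (adjusted p = 0.069, 0.14 and 0.11), leaving 3 members higher. Emr1 and Fcgr3 were not called without untreated knockout replicate 1 (adjusted p = 0.085 and 0.12) or 2 (0.067 and 0.10), nor F13a1 without the latter (0.056), leaving 3 and 2 members higher. Over all genes 1836 were higher, and 1450, 1382 and 1348 in these 3 analyses, in the order named. Mertk kept its call in 12 of 26 alternatives, and of the 9 analyses that left out 1 library only the one without treated knockout replicate 2 kept it. Over all 3 comparisons 12 tested members were called at least once in the main fit and 21 never, among them Csf1r, Lyz2, Ptprc and Ccr2. The share of all genes called at least once was not computed.

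Other genes of macrophages, from a list of 28 that are not members, had 26 in the table and 25 tested. Between the knockout groups 10 of them rose and 0 fell by limma (1 lower at an unadjusted p under 0.05, 0 lower by edgeR), with a median of 0.37. Of all genes, 21.5% rose and 20.7% fell. Axl, a relative of Mertk, rose by 0.73 ± 0.08 on the log2 scale, Clec4n, the receptor dectin-2, from 1.46 ± 0.433 to 5.11 ± 1.10, and Itgam, the integrin CD11b, from 4.60 ± 0.813 to 9.79 ± 1.06. Between the treated groups 2 were higher in knockout hearts, the scavenger receptor Stab1 (84.0 ± 9.86 and 105 ± 11.9) and the chemokine Pf4 (9.32 ± 0.629 and 12.9 ± 2.12). That share is near the 8.06% of all genes that were higher there. Stab1 is made by endothelial cells too. Stab1 and Pf4 were chosen after their values were seen.

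Ligands that recruit or feed macrophages were read between the knockout groups. Of 13 tested from a list of 24 ligands and cytokines, 10 rose and 2 fell (limma), with a median of 0.68. Over all genes 21.5% rose and 20.7% fell. Ccl2, the ligand of Ccr2, rose from 1.97 ± 0.570 to 5.60 ± 1.93, Cxcl12, a stromal chemokine, from 162 ± 12.5 to 233 ± 18.6, and Cxcl16 by 0.83 ± 0.16 on the log2 scale. Il34, a ligand of Csf1r, rose from 2.16 ± 0.161 to 4.07 ± 0.434, while Csf1, its other ligand, fell from 55.2 ± 6.31 to 45.6 ± 4.08 (adjusted p = 0.049). Il34 and Csf1 were chosen after their values were seen. Between the treated groups 1 of the 13 was called higher, Cxcl12 (189 ± 25.4 and 233 ± 18.6, limma, adjusted p = 0.040), which edgeR did not call. A count of 1 in 13 is near the 8.06% of all genes called higher there. The part of endothelial cells and fibroblasts, whose markers were higher too, in these ligands was not tested.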

How the data were processed

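Heart RNA was sequenced from TruSeq libraries, 9 in 3 groups of 3. Cutadapt, RSEM 1.17, limma and GRCm38 were used per the submitters' processing notes, with roles, aligner, settings and gene filter not given in the sources used here. By their name, the deposited signal values are normalized expected counts that the authors made. Divided by a value found for each library, 100% of them came out whole within 0.02 reads. The reads so recovered were used with edgeR 4.0.16 and DESeq2 1.42.0 as alternatives.

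Values were taken as log2(value + 1) and the 13077 genes with a mean of at least 1 over all 9 libraries, a minimum blind to group, were fitted in limma 3.58.1 (R 4.3.3), with 1 mean per group, shared spread and mean-variance trend. Tests were two-sided. Transcript lengths, GC content and positions came from GENCODE M21 on GRCm38 (13385 IDs found), using the longest transcript.

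Up to 3 members of each role group with the smallest p in the first 2 comparisons are described by library, and the other members by range, mean or difference; H2-Aa, Mrc1, Timd4 and Ctss were added by library after their values were seen. Of each other list at most 3 genes with the smallest p were to be named; Stab1, Pf4, Il34, Csf1, Cd79b, Igkc and Nppa fall outside that and were named after their values were seen. NK cell markers had 0 of 8 in the table. Members and lists were chosen with earlier results of these data known. Simulated data with changed genes were used to test the scripts.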

Additional observations from a re-analysis of the deposited data

How the results depend on the processing

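Depth limits the low members: Timd4 had 3 to 14 reads per library, and Aif1, Trem2 and Fcgr1 had 12 to 47. Between treated knockout and treated wild-type hearts, 2319 genes were called, 1472 by limma without a trend, 834 at an adjusted p of 0.01, and 1171 to 2315 with 1 library left out. Members called higher there numbered 4, and 3 to 7 with 1 library left out. None was lower with any library left out (0), and correcting for length and GC content gave 1 (Folr2). The median of the members ranged from 0.025 to 0.347 with 1 library left out. Between the knockout groups 5 members were lower, 3 with cyclic loess, 1 with scaling to nuclear genes, 3 by limma without a trend, 1 at an adjusted p of 0.01, and 1 to 5 with 1 library left out. The 6 higher members became 10 with scaling to nuclear genes and 4 to 13 with 1 library left out. Over all genes 2814 were higher and 2711 lower, and 3836 and 1950 with scaling to nuclear genes. Between treated wild-type and untreated knockout hearts 3542 genes were called and 1937 at an adjusted p of 0.01, where 2 members were higher in place of 6 (2 to 7 with 1 library left out). Scaling to nuclear genes moved the higher share of calls there from 51.8% to 62.8%.

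Of 2529 values of single members under the alternatives, 77 lost and 43 gained a call, and 0 called values turned direction; 87 values without a call changed sign. Same-numbered libraries of different groups had correlations of their deviations from -0.11 to 0.13, so the numbers do not pair them. With the replicate number as a block, 5, 9 and 6 members were higher and 0, 4 and 5 lower in the 3 comparisons, in the order of the text, and not every library correlated best with its own number.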

Other observations

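Mast cells and neutrophils were read from their own markers. Of 5 tested mast cell markers, Kit, a growth factor receptor that other cells express too, rose between the knockout groups from 5.96 ± 0.177 to 13.2 ± 2.83 (limma, adjusted p = 5.1e-05), while the other 4 differed by 0.04 to 0.27 on the log2 scale with no call. Csf3r, the receptor for the growth factor of neutrophils, was at 1.37 ± 0.761 in treated wild-type, 2.51 ± 1.10 in treated knockout and 3.64 ± 1.20 in untreated knockout hearts. It was lower in treated wild-type than in untreated knockout hearts (limma, adjusted p = 0.016) and was called in neither of the other comparisons. Both T cell markers in the table, Cd4 and Cd28, gave no call in any comparison. Cd4 stood at 0.483, 1.11 and 0.829 in untreated knockout, 1.66, 1.56 and 1.30 in treated knockout and 1.47, 1.61 and 1.83 in treated wild-type hearts. Each treated group was above the untreated one without overlap (limma, unadjusted p under 0.05), on 19 to 49 reads per group.

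Cell division genes rose between the knockout groups for 12 of 12 tested, where 21.5% of all genes rose. Between the treated groups 0 of 12 were called by limma (edgeR called 0, and 0 reached an unadjusted p of 0.05). Erythroid genes, a sign of blood in the sample, summed to 1390 to 6280 in treated knockout, 2820 to 3620 in treated wild-type and 2500 to 6040 in untreated knockout hearts, and 0 of 5 were called in any comparison by limma (2 lower between the knockout groups at an unadjusted p under 0.05, 0 by edgeR).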
